A study of Oryza sativa with 20 samples.

Results

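The lamina joint and the blade of rice (Oryza sativa) were compared by small RNA sequencing at S5, the last of 5 sampled stages of the first complete leaf. The comparison comprised 4 of the series' 20 libraries, chosen by title: 2 from the lamina joint at S5 and 2 from the blade at S5. Both groups came from seedlings raised in water with alternating light and dark, and the labels give no treatment, genotype or cultivar. Per the labels, tissue was cut on days 4, 5, 6, 7 and 9 after germination, but no label ties a day to a stage. Lamina joint pieces were under 1 mm long and blade pieces under 10 mm, and whether each library pooled several seedlings is not given in the sources used here. The other 16 libraries, from S1 to S4 of both tissues, served to estimate the spread and to place the S5 differences in time.

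MicroRNAs are short RNAs that guide Argonaute proteins to matching transcripts, which are then cleaved or less translated. In leaves they set the levels of transcription factors and hormone signalling components that direct growth, polarity and ageing. The lamina joint is the hinge of the grass leaf, between sheath and blade. Unequal growth and wall thickening of its adaxial and abaxial sides bend the blade away from the stem and so set the leaf angle, while the blade is the flat photosynthetic organ. The files list numbered tags and do not pair them with miRNA names or sequences. Each entry is therefore described by its number or its rank, no function is given to any tag, and the tissue labels were not checked against marker miRNAs.

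The lamina joint libraries were the shallower ones at S5. They held 198599 and 465886 counts, against 903865 and 1169330 in the blade, a 3.12-fold difference in summed counts. A single count was worth 7.55 and 3.58 CPM (counts per 1000000, normalised) in the lamina joint and 1.54 and 1.22 CPM in the blade. Depth therefore moved with tissue, and its part in the results was not tested beyond the thinned libraries given below. Of the 685 listed tags, 412 had a count in at least 1 S5 library, 299 entered the test across all 20 libraries, and 296 of those had a count at S5. In bulk tissue, a change in RNA per cell and a change in the share of cells that hold a miRNA cannot be told apart.

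Replicates at S5 resembled each other more than the tissues did, by a small margin in the lamina joint. Across the 299 tags, the Spearman correlation of log2(CPM + 1) was 0.954 between the blade replicates and 0.899 between the lamina joint replicates. Between tissues it ranged from 0.858 to 0.868 over the 4 pairs of libraries. The median absolute difference between 2 libraries was 0.45 on the log2 scale for the blade replicates, 0.60 for the lamina joint replicates and 0.71 to 0.82 between tissues. The lamina joint replicates were far apart in a few tags. With 10 CPM added to each value, 6 tags differed over 8-fold between the lamina joint replicates, 4 of them higher in replicate 2 and 2 in replicate 1, and 1 differed between the blade replicates. The number of S5 calls is also given without lamina joint replicate 2, while single-tissue detection and changes since S1 are given only with it.

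The composition of the small RNA pool was then compared. At S5 both tissues carried the same leading tag, and 12 tags differed past the threshold, 11 of them higher in the lamina joint and 1 lower. The higher tags formed 2 ranges of abundance: 2 were among the 10 most abundant tags at S5 and were 1.87-fold and 2.22-fold higher, while the other 9 lay far below these and differed by 5.58-fold to 313-fold. The median fold among the 11 was 13.1. The calls made up 3.68% of the 299 tested tags for the higher direction, 0.334% for the lower direction and 4.01% in all (edgeR quasi-likelihood test, adjusted p under 0.05, 2 libraries per tissue). At an unadjusted p under 0.05 there were 61 tags, or 20.4%. The number of calls depended on each S5 library: it was 5 without lamina joint replicate 2 (4 of them among the 12), 3 without blade replicate 2, and 1 without lamina joint replicate 1 or blade replicate 1. In each of these fits all 12 tags kept their direction.

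The tags past the threshold were few beside the tags whose fitted levels differed. A fitted difference of over 2-fold was seen for 52 tags towards the lamina joint and 47 towards the blade. Both lamina joint libraries lay above both blade libraries for 92 tags (30.8%) and below both for 74 tags (24.7%), so that the tissues did not overlap for 166 tags (55.5%). The median standard error of the fitted difference was 0.61 on the log2 scale, and it fell with abundance. It was 1.34 for the 32 tags under a mean of 10 CPM, 0.66 for the 140 tags from 10 to 100 CPM, 0.46 for 69 tags from 100 to 1000 CPM and 0.40 for 58 tags of 1000 CPM and over. These bins held 0, 6, 3 and 3 of the 12 calls in that order.

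**Figure D1:**
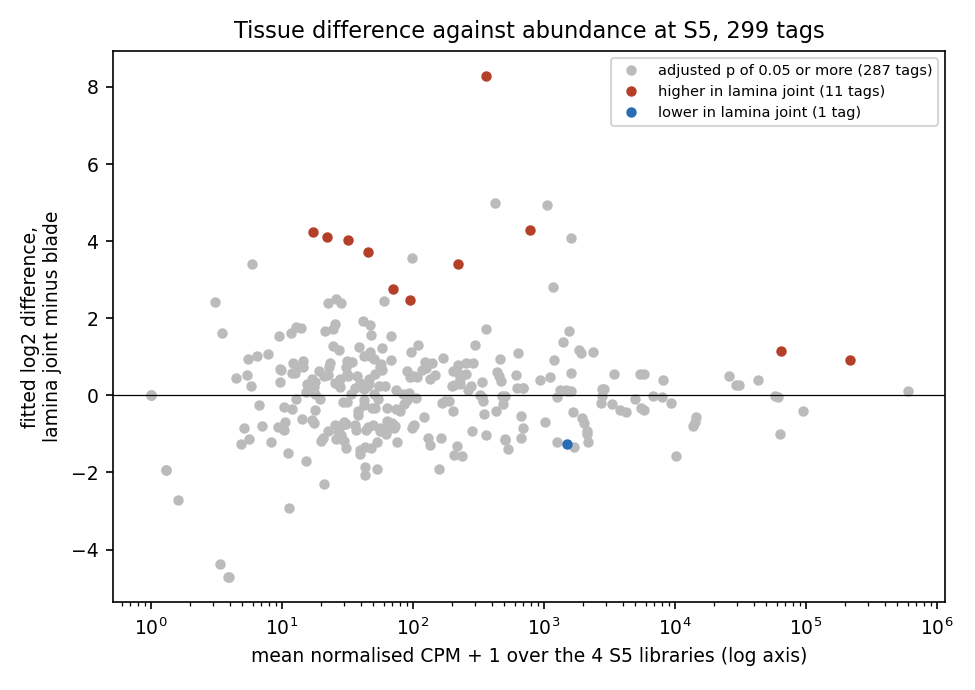
Fitted log2 difference between lamina joint and blade at S5 (vertical axis) against the mean normalised CPM + 1 of the 4 S5 libraries on a log axis, 1 point per tested tag. Of 299 tags, 11 were higher in the lamina joint (red) and 1 was lower (blue), and several grey points with large differences did not pass the threshold.

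The tag with the largest fitted difference among the called tags was tag_243. It had 770 and 676 CPM in the lamina joint replicates and 3.09 and 1.22 CPM in the blade replicates, from 102 and 189 counts against 2 and 1. It was thus well measured in 1 tissue and close to undetected in the other. The ratio of summed counts, scaled by library size, was 345 (exact 95% counting interval 117 to 1684), and the fitted difference was 8.29 ± 0.94 on the log2 scale (SE; edgeR adjusted p = 0.00011). It passed the threshold without each of the 20 libraries in turn.

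Next in fold among the called tags came tag_134, which was also the more abundant of the pair in the lamina joint. Its levels were 1706 and 1285 CPM in the lamina joint and 91.1 and 62.3 CPM in the blade. All 4 values rested on at least 51 counts. The fitted difference was 4.28 ± 0.77 on the log2 scale (SE; edgeR adjusted p = 0.0101), a 19.5-fold difference. Without any of 3 of the S5 libraries (lamina joint replicate 1, blade replicate 1 or blade replicate 2) it kept between 4.05 and 4.59 but missed the threshold, with adjusted p up to 0.0812.

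Of the 7 other tags in this lower range, 4 had fewer than 10 counts in the blade libraries together. The third by fold, tag_116, had 37.8 and 25.1 CPM in the lamina joint against 1.54 and 1.22 CPM in the blade, from 12 counts against 2, 21.4-fold apart by scaled counts (exact 95% interval 4.76 to 197), and its edgeR adjusted p was 0.0101. The fourth had 52.9 and 28.6 CPM against 0 and 3.66 CPM, from 15 counts against 3, 17.8-fold apart by scaled counts (interval 5.04 to 95.9), and its edgeR adjusted p was 0.0156. Groups did not overlap for either tag, though the lamina joint values rested on 5 to 8 counts per library. Without a single S5 library the third passed in 1 of 4 fits and the fourth in 2.

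The fifth and the sixth stood on slightly more counts in the lamina joint. The fifth had 52.9 and 64.4 CPM against 3.09 and 3.66 CPM, a fold of 16.4 (edgeR adjusted p = 0.0202). The sixth had 75.5 and 89.5 CPM against 6.18 and 6.11 CPM, a fold of 13.1 (edgeR adjusted p = 0.0202). In both tags the replicates of a tissue lay close together and the gap lay between tissues.

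The remaining 3 of this range were better counted in the blade, with 25 to 58 counts over its 2 libraries. The seventh by fold had 430 and 372 CPM in the lamina joint and 18.5 and 56.2 CPM in the blade, a fold of 10.6. The eighth had 151 and 93.1 CPM against 21.6 and 13.4 CPM, a fold of 6.82, and the ninth 204 and 115 CPM against 41.7 and 14.7 CPM, a fold of 5.58. Each had an edgeR adjusted p of 0.0202, and within each the lower lamina joint value was above the higher blade value. Leaving out any of the 4 S5 libraries ended the calls of the fifth to the ninth, while their fitted direction was the same in each of those fits.

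**Figure D2:**
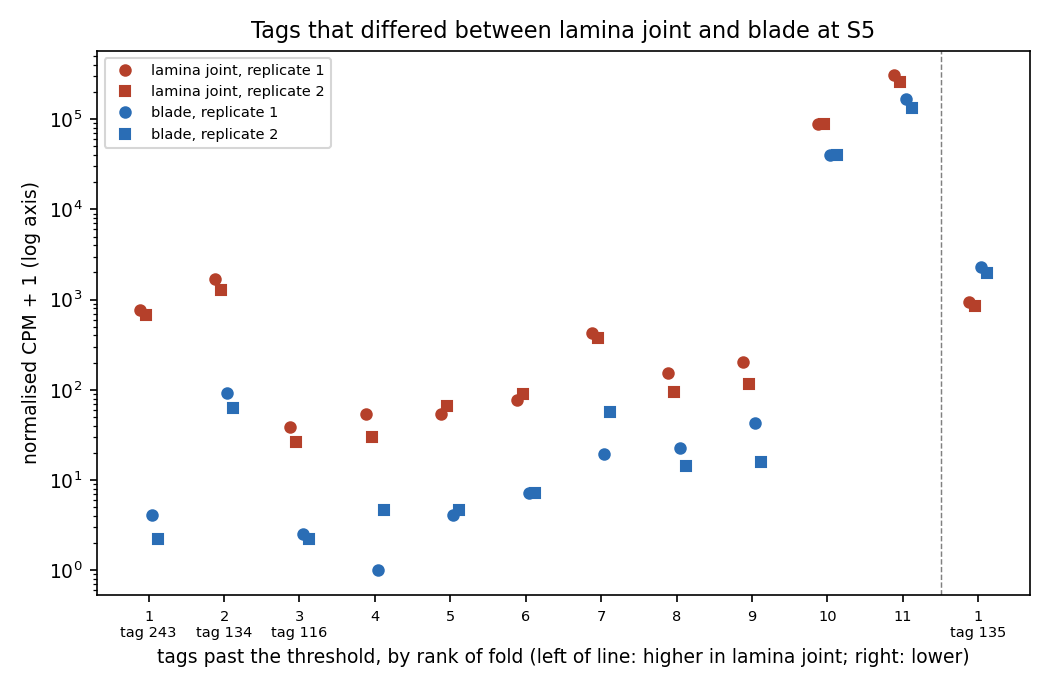
Normalised CPM + 1 on a log axis in each S5 library for the 12 tags past the threshold, ordered by fold within each direction. Red symbols (lamina joint) lie above blue symbols (blade) for the 11 tags left of the dashed line and below them for tag 135.

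Taken as a share of the library, the 11 higher tags held 26.5% and 21.2% of the counts in the lamina joint replicates and 14.9% and 12.2% in the blade replicates. Nearly all of this lay in the 2 abundant tags among them. The other 9 together took 0.232% and 0.165% of the counts in the lamina joint and 0.0134% and 0.0114% in the blade. These members were chosen for being higher, so the shares describe their size and support nothing further.

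The most abundant tag at S5, tag_011, was near equal in the tissues. It held 38.3% (exact 95% binomial interval 38.1 to 38.6) and 40.4% (40.2 to 40.5) of the counts in the lamina joint and 41.1% (41.0 to 41.2) and 40.4% (40.3 to 40.5) in the blade. The libraries of the tissues overlapped, and the fitted difference was 0.12 ± 0.35 on the log2 scale (SE; 95% interval -0.64 to 0.87; edgeR adjusted p = 0.866). Its sign changed with the scaling of the libraries and the filter, and it ran from -0.27 to 0.26 over the alternatives. With 2 libraries against 2, an exact permutation test of a share cannot give a two-sided p below 0.333.

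Ranks of abundance among the leading tags are by the mean share of counts over the 4 S5 libraries. The next tag in abundance passed the threshold. It held 20.4% and 15.6% of the lamina joint counts and 12.04% and 9.38% of the blade counts, and it was 1.87-fold higher in the lamina joint (0.91 ± 0.21 on the log2 scale, SE; edgeR adjusted p = 0.0202). The fifth in abundance held 5.93% and 5.37% against 2.86% and 2.83% in the blade, a 2.22-fold difference (1.15 ± 0.29 on the log2 scale, SE; edgeR adjusted p = 0.0302). It was the third most abundant of the 10 leading tags in the lamina joint and the seventh in the blade. Both calls were the least stable of the 12: the second tag passed in 9 and the fifth in 8 of 15 alternative settings, in which the fitted differences stayed above 0. Each passed in 0 of 4 fits without a single S5 library and in 8 of 16 without a single other library.

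Of the other 8 leading tags, none passed the threshold. The fourth in abundance came nearest, with 2.47% and 2.86% of the counts in the lamina joint against 5.31% and 6.59% in the blade, and a fitted difference of -0.99 ± 0.39 on the log2 scale (SE; edgeR adjusted p = 0.169). Its groups did not overlap, and the 95% interval of the difference ran from -1.84 to -0.15 before adjustment for the number of tags. Together the 10 leading tags held 85.5% ± 0.207 (SD, n = 2) of the counts in the lamina joint and 83.0% ± 1.07 (SD, n = 2) in the blade.

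**Figure D3:**
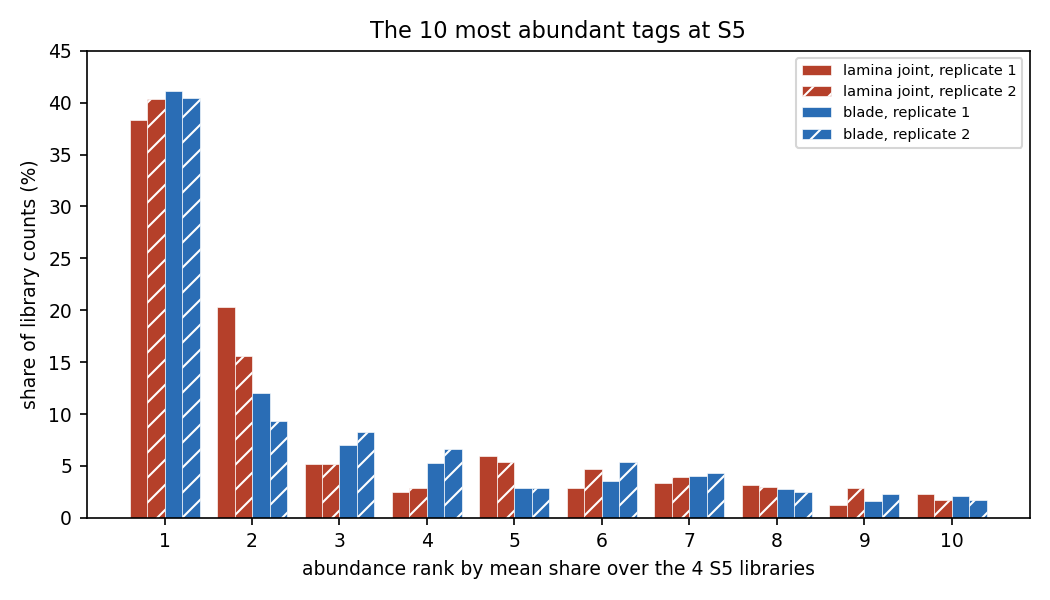
Share of library counts (percent) held by each of the 10 most abundant tags at S5, with 1 bar per library (red, lamina joint; blue, blade; hatched, replicate 2). Rank 1 takes 38.3% to 41.1% in every library, while ranks 2 and 5 have taller red bars and ranks 3 and 4 taller blue bars.

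The blade side held 1 call, tag_135. Its levels were 951 and 841 CPM in the lamina joint and 2278 and 1987 CPM in the blade, from at least 126 counts per library. The groups were far apart relative to the replicates, with means of 896 ± 77.9 and 2133 ± 206 CPM (SD, n = 2). The blade level was 2.38-fold higher, and the fitted difference was -1.25 ± 0.28 on the log2 scale (SE; edgeR adjusted p = 0.0202). Without any of the S5 libraries in turn the difference stayed between -1.36 and -1.12, with adjusted p from 0.0805 to 0.157. It passed in 10 of 15 alternative settings and not with no filter, S5 alone, S4 and S5 alone, thinned libraries or both second lamina joint libraries of S1 and S5 left out, and its adjusted p over all 15 reached 0.148.

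The blade direction was also the one that depended most on the method. DESeq2 called 13 tags higher and 11 lower at S5, and edgeR with no filter on low counts 15 higher and 11 lower. Without its filter edgeR called 9 of the 12 tags above, and DESeq2 called 11 of them. The excess of higher over lower calls was thus 11 to 1 in the main test and near even in those alternatives. Other scalings of the libraries gave 9 or 10 higher and 2 lower. The median fitted difference over all tested tags was 0.13 on the log2 scale with TMM factors and -0.10 to -0.01 with the other scalings. All 12 tags kept their direction in each of those scalings.

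The tissue differences were then placed against earlier stages. At S4 the lamina joint mean was already above the blade mean for 10 of the 11 higher tags, against 48.8% of all tested tags. Both lamina joint libraries lay above both blade libraries for 9 of the 11, against 24.7% of all tested tags. At S1, S2 and S3 the lamina joint mean was the higher for 6, 4 and 6 of the 11, against 46.8%, 47.5% and 45.2% of all tested tags. The exception at S4 was tag_116, with 33.6 and 40.4 CPM in the lamina joint against 47.0 and 60.6 CPM in the blade.

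Changes since S1 within each tissue are given as a description. This contrast shares its S5 libraries with the comparison that chose the 11 tags and was added after the values were seen, so nothing is read from their counts against those of all tags. In the lamina joint 7 of the 11 higher tags rose from S1 to S5, where 24.1% of all tested tags rose (44.1% changed in either direction), 1 fell and 3 did not pass. In the blade 6 of the 11 fell, where 25.1% of all tested tags fell (48.8% changed), 1 rose and 4 did not pass (edgeR adjusted p under 0.05). Scaling by total counts, under which the median tag fell by 0.58 in the lamina joint and by 0.94 in the blade on the log2 scale, gave 4 rises in the lamina joint and 7 falls in the blade. Under all 5 scalings, 4 of the 11 tags had risen in the lamina joint, and in the blade 5 had fallen.

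The named tags show these courses. The level of tag_243 in the lamina joint was 2.01 ± 2.85 CPM at S1, 4.44 ± 1.05 at S2, 28.2 ± 0.407 at S3, 307 ± 38.0 at S4 and 723 ± 66.2 at S5 (SD, n = 2 at each), while its blade means lay between 2.16 and 10.8 CPM throughout. It rose from S1 to S5 in the lamina joint (edgeR adjusted p = 2.12e-05) and did not pass in the blade (adjusted p = 0.272). The mean level of tag_134 stayed at or below 12.9 CPM in both tissues up to S3, and its S4 means were 215 ± 81.4 CPM in the lamina joint and 30.4 ± 21.6 CPM in the blade (SD, n = 2). It rose in both tissues, by 7.17 and 5.23 on the log2 scale (edgeR adjusted p = 6.78e-05 and 0.00106).

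A different course was seen for tag_116, whose tissue means changed order between S4 and S5. The test of its S5 difference against that at S4 did not pass (edgeR adjusted p = 0.0507). In the blade tag_116 had 57.9 ± 16.0 CPM at S3, 53.8 ± 9.61 CPM at S4 and 1.38 ± 0.228 CPM at S5 (SD, n = 2), from 66, 64 and 2 counts. In the lamina joint it had 25.1 ± 1.06, 37.0 ± 4.79 and 31.4 ± 8.98 CPM (SD, n = 2) at the same stages. At S1 and S2 its lamina joint means were 3.31 and 6.65 CPM and its blade means 25.8 and 22.4 CPM. From S1 to S5 it rose by 2.71 on the log2 scale in the lamina joint and fell by 4.01 in the blade (edgeR adjusted p = 0.00879 and 0.000578). The rise did not pass under scaling by total counts.

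The blade call, tag_135, was above the lamina joint at every stage. Its blade means were 70.1, 95.8, 139, 348 and 2133 CPM from S1 to S5, and its lamina joint means 40.5, 45.8, 92.5, 165 and 896 CPM. It rose from S1 to S5 by 4.92 in the blade and by 4.44 in the lamina joint on the log2 scale (edgeR adjusted p = 1.40e-07 and 5.45e-07), also under each other scaling.

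**Figure D4:**
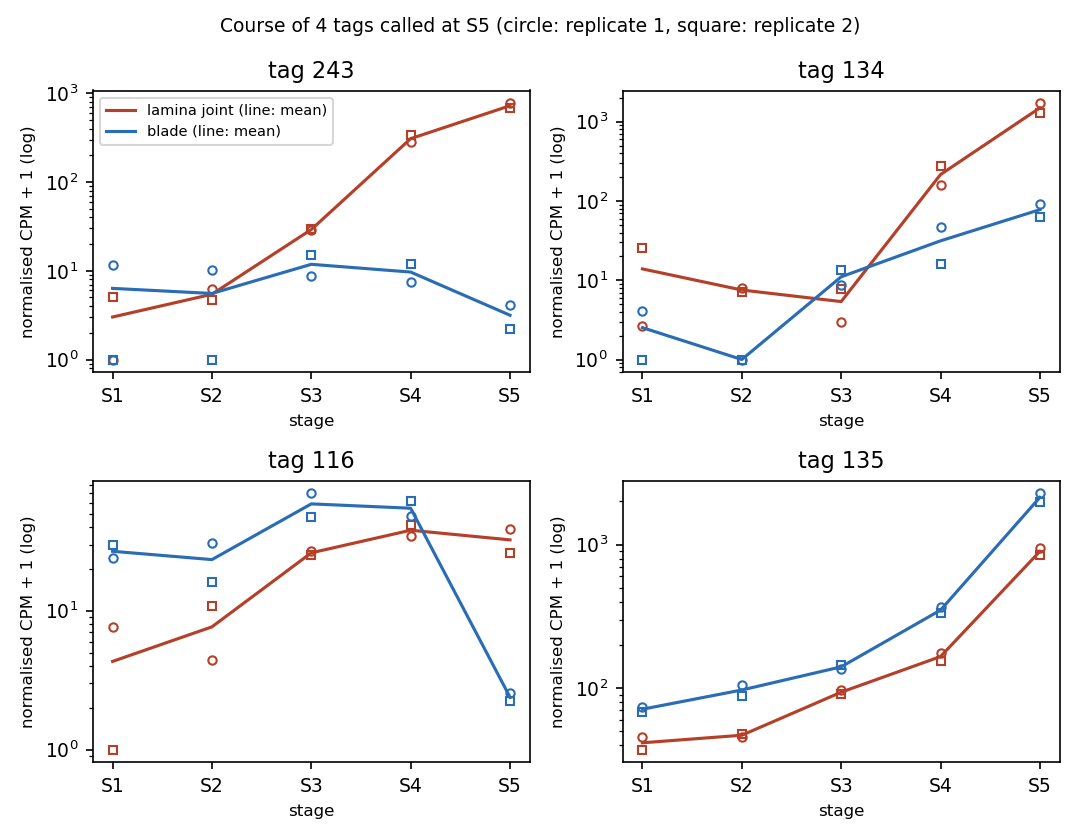
Normalised CPM + 1 on a log axis across stages S1 to S5 for 4 tags called at S5, with symbols for single libraries and lines through the means of each tissue (red, lamina joint; blue, blade). The tissues separate from S3 or S4 onwards for tags 243 and 134, the blade level of tag 116 is 1.38 CPM at S5, and tag 135 lies higher in the blade at each stage.

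Whether the S5 difference departed from earlier ones was tested directly. Against the mean difference over S1 to S4, 5 tags departed (1.67% of those tested), each towards the lamina joint. That direction was not shared by every alternative: DESeq2 gave 10 departures towards the lamina joint and 4 towards the blade, edgeR with no filter 13 and 6, upper quartile factors 4 and 1, and the fits without blade S3 replicate 1 and without lamina joint S1 replicate 2 gave 4 and 3, and 16 and 1. The departure was 7.26 ± 1.04 for tag_243 and 5.72 ± 0.85 for tag_116 on the log2 scale (SE; edgeR adjusted p = 0.00127 for both). At S1 and S2, tag_243 had only 1 and 6 counts in the lamina joint and 7 and 4 in the blade. Leaving out the first blade library of S1 or of S2 left no blade count of tag_243 at that stage. The departure of tag_243 was then not estimable (fitted as 5.89 or 5.88, with an SE of 128233 or 204840). For tag_134, which had no blade count at S2, the departure had an SE of 66.3 and was not estimable. The third to depart was the tag of rank 5 in abundance at S5 by mean share of counts (rank 4 by mean normalised CPM). Its departure was 1.98 ± 0.32 (SE, edgeR adjusted p = 0.00236). Its means over S1 to S5 were 32696, 25322, 49519, 54529 and 89256 CPM in the lamina joint and 54463, 78462, 95237, 54386 and 40188 CPM in the blade. The tissues thus changed order between S3 and S5.

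The other 2 tags that departed were not called at S5 itself. The first of them had 566 and 537 CPM in the lamina joint against 144 and 188 CPM in the blade at S5 (edgeR adjusted p = 0.128), after blade means of 511 to 936 CPM at S1 to S3, and its departure was 3.71 ± 0.69 (SE; edgeR adjusted p = 0.00718). The last was lower in the lamina joint at each stage, with a gap at S5 of 378 and 211 CPM against 752 and 782 CPM, and a departure of 2.31 ± 0.54 (SE; edgeR adjusted p = 0.0417). The count of 5 was 2 without blade S5 replicate 2, 3 without blade S5 replicate 1 or the first blade library of S1 or S2, and 17 without the second lamina joint library of S1.

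Against S4 alone, 0 tags departed by edgeR (0%), with 11 tags (3.68%) at an unadjusted p under 0.05. DESeq2 gave 0 and limma with voom gave 1. The nearest was tag_116, with a departure of 4.78 ± 0.95 on the log2 scale (SE; edgeR adjusted p = 0.0507). Over the other settings its adjusted p ran from 0.0204 to 0.689. The S5 differences were therefore not shown to differ from those at S4 for any tag in the main test.

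Some large differences did not pass the threshold. Past 8-fold in the fit there were 5 uncalled tags towards the lamina joint and 3 towards the blade, beside 7 called ones. The 3 largest uncalled differences towards the lamina joint were in tags that were far higher in lamina joint replicate 2 than in replicate 1. Their lamina joint values were 0 and 1657, 90.6 and 4020, and 355 and 5716 CPM in replicates 1 and 2. Their blade values lay between 23.2 and 186 CPM, and edgeR adjusted p was 0.224 to 0.365. Another had 249 and 115 CPM against 12.4 and 17.1 CPM (edgeR adjusted p = 0.0814). The last of the 5 and all 3 towards the blade had at most 9 counts in either tissue.

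Detection in a single tissue was counted next. The lamina joint replicates had counts for 316 and 336 tags and the blade replicates for 369 and 378. Of the tags with a count in both libraries of a tissue, 17 had none in the lamina joint and 0 had none in the blade. The 17 had a median of 5 and at most 13 summed blade counts. In the lamina joint libraries 1 count corresponds to 7.55 and 3.58 CPM, and a floor of 3 counts to 22.7 and 10.7 CPM. With all 4 libraries thinned to 198599 counts, the detected tags were 316 and 294 in the lamina joint and 295 and 309 in the blade, and 8 tags were found in each tissue only. The tissue test on the thinned libraries called 9 tags, all higher in the lamina joint and all among the 12.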

How the data were processed

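The authors deposited whole-number counts per tag for each of 20 small RNA libraries, not normalised. The submitters' processing notes name IRGSP-1.0 as genome build, and CASAVA. How reads were aligned, annotated and shared among several miRNAs is not given in the sources used here, and near-identical miRNAs could share reads. No tested tag had counts identical to another's in all libraries. RNA was extracted with TRIzol, per the labels' protocols.

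Groups came from titles. Replicate pairs differed beyond sampling noise (chi-square per degree of freedom 50.5 in the lamina joint, 82.6 in the blade). This statistic grows with the number of counts, which was larger in the blade, so the values do not rank the tissues by spread. Nothing says that replicates came from separate plants, so the p-values rest on a spread that may be only technical. edgeR 4.0.16 (R 4.3.3) was used with TMM factors, filterByExpr (minimum count 10, minimum total 15) and the quasi-likelihood test. All 20 libraries were fitted with a mean for each of 10 groups and 10 residual degrees of freedom. Tests were two-sided, with Benjamini-Hochberg adjustment over 299 tags and a threshold of 0.05. The fits were also run on simulated data drawn with a single spread for all tags. That setting lacks the far-apart replicates seen here, so it does not bear on the stability of the calls. Standard errors come from the F statistic. CPM use effective library sizes. Counting intervals and floors (3 counts) cover counting error only.

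Alternatives were other scalings, filters, voom in limma 3.58.1, DESeq2 1.42.0, robust estimation, replicate blocks, fewer stages, thinned S5 libraries and leaving out each library. Tags and tests were chosen with earlier results of these data known. By the rule, the numbered tags are the most abundant tag and up to 2 per direction and comparison. The latter are the called tags largest in fold with a mean of at least 10 CPM, or those smallest in p. Outside the rule, tag_138 and tag_044 are numbered too, chosen after their values were seen. The others are given by rank, since no table pairs tags with names. Lists of miRNA families were not used for the same reason. Python 3.11.15 with matplotlib 3.10.9 drew the figures. The S5 minus S1 contrast, the thinning and leaving out 2 libraries together were added after the values were seen.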

Additional observations from a re-analysis of the deposited data

Results flagged for a closer look

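For 5 tags the lamina joint minus blade difference at S5 departed, by the edgeR test of the difference itself, from the mean difference over S1 to S4. In log2 units, tag_243 departed by 7.26, tag_116 by 5.72 and the tag of rank 5 in abundance at S5 by 1.98. Departures of 3.71 and 2.31 were found for the 2 tags that were not called at S5 itself.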

How the results depend on the processing

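The count of 12 tags at S5 was 26 with no filter, 24 by DESeq2 and 3 with the 4 S5 libraries alone, which leave 2 residual degrees of freedom. It ran from 1 to 16 without a single library: 1 without lamina joint replicate 1 or blade replicate 1 of S5, 5 without lamina joint replicate 2, 3 without blade replicate 2, and 8 to 16 without any other library. Where an S5 library is left out, the lone library is assumed to vary like the other groups. The count of 0 departures from S4 was 6 with no filter, 1 with a mean of at least 10 CPM and 1 by limma with voom, and 0 to 1 without a single library. The count of 5 departures from S1 to S4 was 19 with no filter, 14 by DESeq2, 10 by limma with voom, 8 with robust estimation, 11 without both second lamina joint libraries of S1 and S5 (chosen after seeing the data) and 2 to 17 without a single library. Apart from the construction of these alternatives, the cause was not tested. The labels do not say whether same-numbered replicates of the tissues shared a batch. The correlation of their deviations was 0.0563 at S5 and 0.15 to 0.53 at other stages. A replicate block within each stage gave 17 tags at S5, 0 departures from S4 and 12 from S1 to S4, and a block over all stages gave 12 at S5. The 10 most abundant tags of each library held 86.1% of lamina joint counts, in place of 85.5%. With at least 10 summed counts required, 2 tags were found in the blade only, and thinning, added after seeing the data, gave 8 in each tissue only. Of the recomputed values for tags numbered by the rule, 221 kept their side of the threshold, 14 lost it and 5 gained it, and 0 called values reversed. The part of depth in the few lower calls was not tested beyond thinning, which gave 9 higher and 0 lower.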

Other observations

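The 3 tags that were high in the second lamina joint library of S5 were also high in the second lamina joint library of S1. They were chosen after their values were seen. The first, tag_138, had 1657 CPM in lamina joint S5 replicate 2 and 1784 CPM in lamina joint S1 replicate 2. It had 67.1 CPM in blade S1 replicate 2, 23.2 and 29.3 CPM in the blade S5 libraries, and no count in the other 14 libraries of S1 to S4 or in lamina joint S5 replicate 1. The second, tag_044, had 4020 and 2879 CPM in the same lamina joint libraries, 163 CPM in blade S1 replicate 2 and at most 2.69 CPM in those 14. The third had 5716 and 5923 CPM, 386 CPM in blade S1 replicate 2 and 16.2 to 373 CPM in those 14. Differences of over 8-fold between replicates, with 10 CPM added, numbered 13 tags in lamina joint S1, 6 in lamina joint S5, 6 in blade S1 and 0 to 2 in each other group.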
